A study of Schizosaccharomyces pombe with 12 samples.

Results

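The histone genes of Schizosaccharomyces pombe, the fission yeast, were followed through strains that lack Med20, Rrp6 or both. The 10 genes were taken by identifier from the 3 deposited comparison tables, which list 6888, 6888 and 6871 genes, and all 10 stand in each table. They are the H3 genes hht1 (SPAC1834.04), hht2 (SPBC8D2.04) and hht3 (SPBC1105.11c), and the H4 genes hhf1 (SPAC1834.03c), hhf2 (SPBC8D2.03c) and hhf3 (SPBC1105.12). The H2A genes are hta1 (SPCC622.08c) and hta2 (SPAC19G12.06c), the H2B gene is htb1 (SPCC622.09), and pht1 (SPBC11B10.10c) encodes the variant H2A.Z. Poly(A)-selected RNA was sequenced from 4 strains with 3 samples each, grown at 30 degrees in rich medium to logarithmic phase. Med20 is a subunit of the head of Mediator, the complex that links transcription factors to RNA polymerase II. Rrp6 is a nuclease attached to the exosome, which degrades and trims RNA in the nucleus.

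Per the labels, med20∆ is an h+ strain with leu1-32, ura4-D18 and the replacement med20:NAT. The rrp6∆ strain is h- with rrp6∆::KanMx6, the insert Otr1R(Sph1)::ura+ and the alleles Ura4 DS/E 216, His2 and Leu1-32. The med20∆/rrp6∆ strain has med20:natMX, rrp6∆::KanMx6, leu1-32 and ura4-D18, with no mating type given. Wild type is h- L972, with no auxotrophic allele named. The deletions therefore cannot be told apart from the markers and mating types that came with them, and whether a strain is 1 clone was not stated. The series design speaks of biological replicates without saying if each was its own culture. The p-values therefore measure only how far these samples spread, which may be technical.

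Histones package DNA into nucleosomes, in which a tetramer of H3 and H4 is flanked by dimers of H2A and H2B. In fission yeast each H3 gene lies head to head with an H4 gene, and hta1 lies head to head with htb1, so that the genes of a pair share the DNA between them as promoter. Core histone mRNA is made mainly in S phase, through factors such as Ams2 that act at a short repeated promoter element called the AACCCT box. The hht2-hhf2 pair is known for being transcribed more evenly through the cell cycle than the other H3-H4 pairs. In a bulk sample, fewer cells in S phase and less RNA per cell cannot be told apart.

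The promoter regions are printed because the pairs differ in their levels while the proteins do not. The 3 H3 genes have a coding length of 411 bases, are 88.3% to 92.7% identical in pairwise comparison and encode the same amino acids, with 0 differences. The 3 H4 genes have a coding length of 312 bases, are 91.3% to 93.3% identical and also have 0 amino acid differences. The longest stretches of identical coding bases span 26 to 47 bases between H3 genes, 45 to 54 between H4 genes and 41 between hta1 and hta2. How reads from such stretches were assigned was not stated, so the split between copies carries that uncertainty. The regions below are from RefSeq, build ASM294v3, and run 5′ to 3′ between the annotated starts of the named genes, with AACCCT, or AGGGTT where it is read on the other strand, in capitals. They lie at chrI:4699600-4699731 on the plus strand, chrII:1364985-1365118 on the plus strand, chrII:3529566-3529766 on the minus strand and chrIII:1412182-1412358 on the plus strand, in the order printed.
hhf1-hht1: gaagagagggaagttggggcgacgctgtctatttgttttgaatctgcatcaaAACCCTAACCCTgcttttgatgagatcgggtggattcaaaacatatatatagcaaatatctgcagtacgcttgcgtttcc
hhf2-hht2: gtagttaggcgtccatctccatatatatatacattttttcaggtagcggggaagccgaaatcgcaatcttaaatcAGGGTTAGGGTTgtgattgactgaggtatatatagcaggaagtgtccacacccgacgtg
hhf3-hht3: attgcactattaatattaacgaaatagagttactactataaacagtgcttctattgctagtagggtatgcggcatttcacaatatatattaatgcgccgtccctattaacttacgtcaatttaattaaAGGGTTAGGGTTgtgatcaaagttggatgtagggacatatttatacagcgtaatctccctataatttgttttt
hta1-htb1: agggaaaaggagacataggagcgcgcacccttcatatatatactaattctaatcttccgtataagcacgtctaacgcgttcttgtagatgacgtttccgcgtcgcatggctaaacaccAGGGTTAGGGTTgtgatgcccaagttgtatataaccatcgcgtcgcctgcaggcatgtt
Each region holds 2 adjacent copies of the 6-base motif. Between hhf1 and hht1 the motif reads toward hht1, whereas in the other regions it reads toward the left-hand gene, which is hhf2, hhf3 or hta1. Between the copies and the annotated start of the H3 gene lay 74 and 68 bases for hht1, 53 and 47 for hht2, and 67 and 61 for hht3. In the 250 bases before its annotated start, searched on both strands, hta2 also had 2 matches and pht1 had 0. Of 5112 protein-coding genes, 8.29% had at least 1 match in such a window and 0.646% at least 2. Of 177 divergent intergenic regions of 100 to 250 bases, 19 held at least 1 match. A match describes letters and does not show that a factor binds there.

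**Figure D1:**
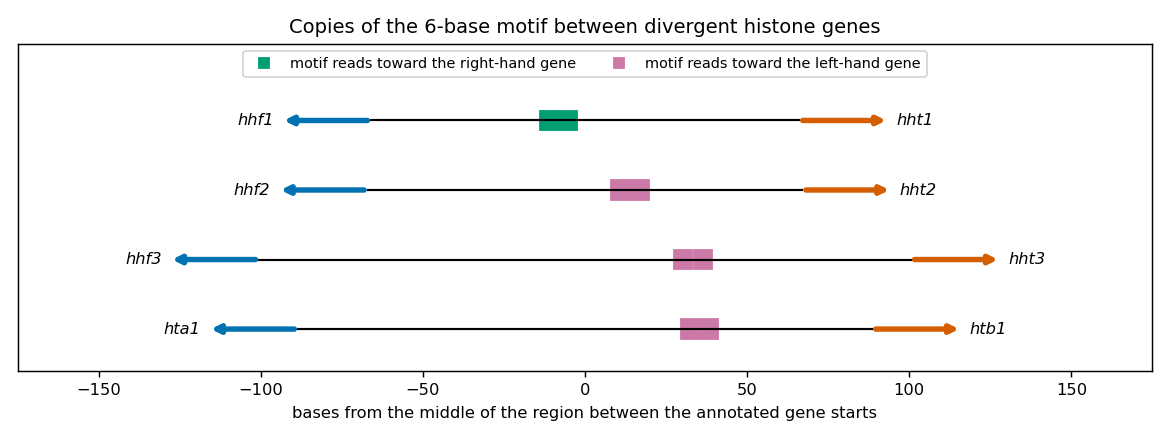
Positions of the 6-base AACCCT motif between divergent histone genes, in bases from the middle of each intergenic region, with arrows for the direction of each gene and colours for the direction of the motif. All 4 regions carry 2 adjacent copies, and the orientation in hhf1-hht1 is opposite to that in the other regions.

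The authors' deposited tables give a mean normalised count for each strain. For most genes its digits are enough to recover the whole counts of the 3 libraries behind it. Recomputing the authors' DESeq test from the recovered counts returned the deposited p-values of all 10 genes. In med20∆/rrp6∆, however, the digits left 3 possible splits for hht2 and 2 for hta2. There the split that returned the deposited p-value was kept, so in those cases the match is no check. Libraries held 6041636 to 9776385 counts over the 6547 genes recovered in every library, and their numbers within a strain are those of the recovery, with no tie to the letters in the labels. The deletions were visible, with med20 at 5.05 ± 2.17 in med20∆, 24.7 ± 4.67 in med20∆/rrp6∆ and 712 ± 27 in wild type (normalised counts, SD, n = 3 each). The rrp6 level was 1.54 ± 1.14 in rrp6∆, 1.196 ± 0.552 in med20∆/rrp6∆ and 1626 ± 522 in wild type. The marker ura4 went against 1 label, at 2456 ± 334 in the libraries labelled med20∆, whose label names ura4-D18, against 3.24 ± 1.76 in med20∆/rrp6∆ and 2291 ± 376 in wild type. In each strain 1 library stood apart on the third principal component, which held 14.7% of the variance. These are med20∆ library 1, rrp6∆ library 2, med20∆/rrp6∆ library 2 and wild type library 1, and results that rest on them are given with and without them.

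In med20∆/rrp6∆ the balance among the H3 genes changed, with hht1 lower and hht2 higher than in wild type. For hht1, normalised counts in libraries 1 to 3 were 9712, 13587 and 10527 in med20∆, 12334, 13512 and 10165 in rrp6∆, 4605, 7688 and 6567 in med20∆/rrp6∆ and 16721, 17237 and 19326 in wild type. All 3 mutants lay below wild type without overlap, and med20∆/rrp6∆ also lay below both other mutants without overlap. The authors' deposited table puts hht1 in med20∆/rrp6∆ at a log2 fold change of -1.48 (DESeq, adjusted p = 0.0010). For med20∆ and rrp6∆ the authors' deposited tables give -0.66 and -0.52 (DESeq, adjusted p = 0.378 and 0.507), which did not pass. By limma, hht1 was lower in med20∆/rrp6∆ than in med20∆ by a log2 difference of -0.86 ± 0.24 SE (adjusted p = 0.0292) and than in rrp6∆ by -0.95 ± 0.24 SE (adjusted p = 0.0242).

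For hht2, normalised counts in libraries 1 to 3 were 17552, 54713 and 41409 in med20∆, 14873, 14197 and 15747 in rrp6∆, 33725, 33703 and 50125 in med20∆/rrp6∆ and 13954, 21226 and 21712 in wild type. Every library of med20∆/rrp6∆ was above every library of wild type and of rrp6∆, while med20∆ ranged widely, its library 1 falling inside the wild-type range. The level of hht2 was lowest in the library that stands apart in all 4 strains. In med20∆/rrp6∆ that library nearly tied with library 1, at 33703 against 33725. The part of the third principal component in the spread was not tested. The authors' deposited table gives hht2 a log2 fold change of 1.07 in med20∆/rrp6∆ (DESeq, adjusted p = 0.0275), a mean 2.10-fold higher. In med20∆ the authors' deposited table gives 0.99 (DESeq, adjusted p = 0.627), and in rrp6∆ it gives -0.30 (adjusted p = 0.815). By limma, hht2 in med20∆/rrp6∆ was higher than in rrp6∆ by 1.37 ± 0.36 SE (log2, adjusted p = 0.0336), and its difference from med20∆ was 0.17 ± 0.36 SE (adjusted p = 0.785).

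By limma the log2 difference of hht1 between med20∆/rrp6∆ and wild type was -1.53 ± 0.24 SE (adjusted p = 0.000411), and it stayed past the threshold with each of the 12 libraries left out in turn. For hht2 limma gave 1.05 ± 0.36 SE (adjusted p = 0.0427), and the adjusted p passed in 3 of the 12 fits with a library left out, those without med20∆ library 1, med20∆ library 2 or med20∆/rrp6∆ library 2, over a range of 0.00829 to 0.147. Without the 4 libraries that stand apart, limma gave -1.72 for hht1 (adjusted p = 0.0016) and 0.95 for hht2 (adjusted p = 0.0486). In med20∆ against wild type, hht2 passed limma only without med20∆ library 1 (log2 1.35, adjusted p = 0.0287). The difference of hht1 between med20∆/rrp6∆ and med20∆ lost its call without med20∆ library 2 or 3 or med20∆/rrp6∆ library 1 or 3, with adjusted p up to 0.109. Against rrp6∆, hht1 lost its call without rrp6∆ library 1, 2 or 3 or med20∆/rrp6∆ library 1 (adjusted p up to 0.0878), and hht2 without any of these or med20∆/rrp6∆ library 3 (adjusted p up to 0.101).

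The other H3 gene, hht3, had normalised counts of 9165, 14484 and 14769 in med20∆, 12763, 18119.8 and 13477 in rrp6∆, 7023, 13080.1 and 10065 in med20∆/rrp6∆ and 14043, 17678 and 17283 in wild type. Its libraries in med20∆/rrp6∆ all lay below those of wild type. The authors' deposited table gives -0.68 there (DESeq, adjusted p = 0.18), so the gene was not called, and limma gave -0.74 ± 0.28 SE (adjusted p = 0.0597). Without the 4 libraries that stand apart, limma gave -1.04 (adjusted p = 0.0129).

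**Figure D2:**
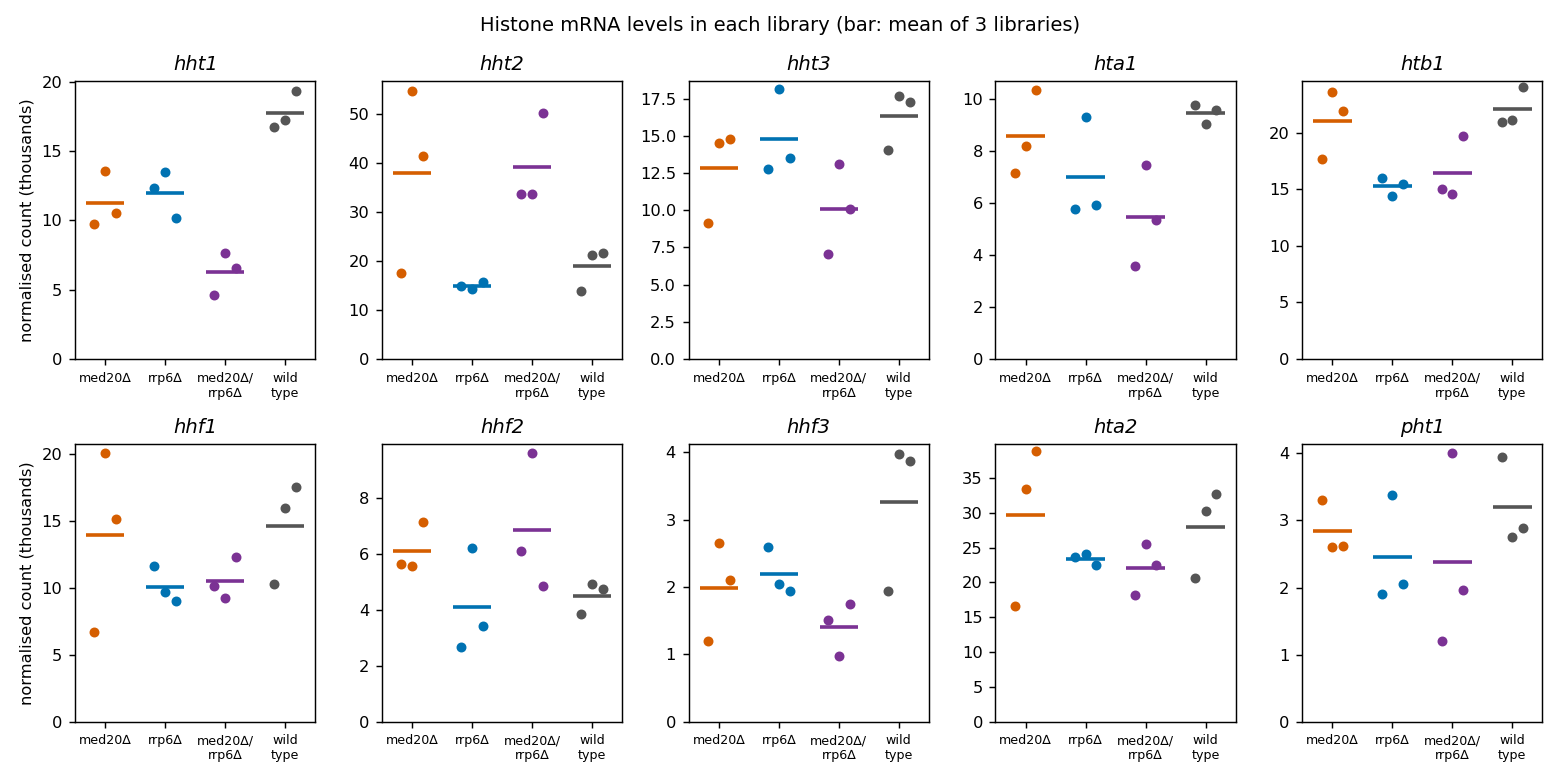
Normalised counts (in units of 1000) of the 10 histone genes in each of 3 libraries per strain, with bars for the means; each panel has its own scale, starting at 0. The hht1 points of med20∆/rrp6∆ lie below those of all other strains, and its hht2 points lie above those of rrp6∆ and wild type.

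Among the H4 genes, hhf3 had the largest difference in med20∆/rrp6∆. Its normalised counts were 1198, 2649 and 2109.7 in med20∆, 2600.4, 2041 and 1943 in rrp6∆, 1504, 976 and 1756 in med20∆/rrp6∆ and 1937, 3979 and 3869 in wild type. The med20∆/rrp6∆ libraries lay below the wild-type ones without overlap, though the highest of them came close to wild type library 1. The authors' deposited table gives hhf3 -1.18 in med20∆/rrp6∆ (DESeq, adjusted p = 0.0654), short of the threshold, whereas limma called it at -1.18 ± 0.34 SE (adjusted p = 0.0187). The limma call was lost without med20∆/rrp6∆ library 2 or wild type library 2 or 3, with adjusted p up to 0.0703, and without the 4 libraries that stand apart it was -1.26 (adjusted p = 0.00184). In med20∆ and rrp6∆ the authors' deposited tables give hhf3 -0.73 and -0.53 (DESeq, adjusted p = 0.609 and 0.640).

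The H4 partner of hht2, hhf2, averaged 6112 ± 874 in med20∆, 4102 ± 1866 in rrp6∆, 6838 ± 2460.3 in med20∆/rrp6∆ and 4497 ± 572 in wild type (SD, n = 3 each). The 3 med20∆ libraries, from 5565 to 7120.0, were above the highest wild-type library at 4919. The authors' deposited tables give hhf2 0.44 in med20∆, -0.09 in rrp6∆ and 0.63 in med20∆/rrp6∆ (DESeq, adjusted p = 0.763, 0.992 and 0.287), none of which passed. Without the 4 libraries that stand apart, limma gave hhf2 0.38 in med20∆, -0.68 in rrp6∆ and 0.18 in med20∆/rrp6∆ against wild type (adjusted p = 0.35, 0.101 and 0.541), and 0.86 in med20∆/rrp6∆ against rrp6∆ (adjusted p = 0.0303). For hhf1, the partner of hht1, the means were 13967 ± 6788 in med20∆, 10098 ± 1383 in rrp6∆, 10549.6 ± 1579 in med20∆/rrp6∆ and 14589 ± 3820.1 in wild type, with overlapping libraries throughout. The overlap of rrp6∆ and med20∆/rrp6∆ with wild type rested on wild type library 1, at 10267. The other wild-type libraries, at 15985 and 17515, lay above all of theirs, which reached 11647 and 12304. The authors' deposited tables give hhf1 -0.08, -0.49 and -0.44 in med20∆, rrp6∆ and med20∆/rrp6∆ (DESeq, adjusted p = 1, 0.59 and 0.469). Without the 4 libraries that stand apart, limma gave 0.06, -0.71 and -0.57 (adjusted p = 0.921, 0.145 and 0.125).

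Of the genes for H2A and H2B, hta1 had the largest difference. Normalised counts of hta1 were 7139, 8201 and 10349.7 in med20∆, 5763, 9311 and 5939 in rrp6∆, 3588, 7454 and 5339.7 in med20∆/rrp6∆ and 9780.0, 9050.3 and 9575 in wild type. All med20∆/rrp6∆ libraries were below all wild-type libraries, and the other mutants overlapped wild type. The authors' deposited table gives -0.77 for hta1 in med20∆/rrp6∆ (DESeq, adjusted p = 0.113), not called, and limma gave -0.86 ± 0.28 SE (adjusted p = 0.0325), a call lost without med20∆/rrp6∆ library 1 or 3 or any 1 of the wild-type libraries (adjusted p up to 0.142). Without the 4 libraries that stand apart, limma gave hta1 -1.08 in med20∆/rrp6∆ against wild type (adjusted p = 0.00932) and -1.06 against med20∆ (adjusted p = 0.016).

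The divergent partner htb1, the only H2B gene here, averaged 21058 ± 3065 in med20∆, 15269 ± 806 in rrp6∆, 16423 ± 2845 in med20∆/rrp6∆ and 22041 ± 1758 in wild type. Its libraries lay below wild type without overlap in rrp6∆ and in med20∆/rrp6∆, but neither difference was called, at -0.49 and -0.40 in the authors' deposited tables (DESeq, adjusted p = 0.569 and 0.503). The second H2A gene, hta2, averaged 29596 ± 11567 in med20∆, 23392 ± 791 in rrp6∆, 22053 ± 3679.6 in med20∆/rrp6∆ and 27885 ± 6385 in wild type. Its libraries overlapped wild type in every mutant, and the authors' deposited tables give log2 values from -0.31 to 0.08. In rrp6∆ and med20∆/rrp6∆ the overlap rested on wild type library 1, at 20647. The other wild-type libraries, at 30286 and 32722, lay above all of theirs, which reached 24003 and 25489. Without the 4 libraries that stand apart, limma gave hta2 0.19 in med20∆, -0.45 in rrp6∆ and -0.63 in med20∆/rrp6∆ (adjusted p = 0.758, 0.394 and 0.128).

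The variant gene pht1, whose product H2A.Z replaces H2A in nucleosomes near gene starts, averaged 2845 ± 397 in med20∆, 2449 ± 811 in rrp6∆, 2388 ± 1449.6 in med20∆/rrp6∆ and 3196 ± 656 in wild type. Its level was highest in the library that stands apart in all 4 strains. No mutant was called: the authors' deposited tables list -0.17 in med20∆, -0.34 in rrp6∆ and -0.40 in med20∆/rrp6∆ (log2, DESeq, adjusted p = 1, 0.732 and 0.575). Without the libraries that stand apart, limma gave -0.87 for pht1 in med20∆/rrp6∆ against wild type (adjusted p = 0.0159), and without med20∆/rrp6∆ library 2 alone it gave -1.03 (adjusted p = 0.0188).

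Counted over the 10 genes, the authors' deposited table called 1 higher (hht2) and 1 lower (hht1) in med20∆/rrp6∆, where it called 8.59% of all genes higher and 6.71% lower. In med20∆ and in rrp6∆ the authors' deposited tables (DESeq) called 0 of 10. Of all genes they called 1.12% higher and 1.25% lower in med20∆ (2.37% either way), and 4.97% higher and 1.0% lower in rrp6∆ (5.97% either way); in med20∆/rrp6∆ 15.3% were called either way. The count by limma was also 0 in both, beside 2.26% of genes higher and 2.06% lower in med20∆, and 6.27% and 1.76% in rrp6∆. At an unadjusted p under 0.05, the deposited test had 1 gene in med20∆ (hht1) and 0 in rrp6∆. By limma 2 were at that level in each, but no limma share of all genes at that level was taken. In med20∆/rrp6∆ the deposited test had 5 of 10 at that level. Of all genes, 714 of 6888 in med20∆, 977 of 6888 in rrp6∆ and 1906 of 6871 in med20∆/rrp6∆ were at that level in the authors' deposited tables. In med20∆/rrp6∆ against wild type, limma called 1 gene higher and 3 lower, beside 15.4% and 15.1% of the genes tested. The calls of limma against med20∆ were 0 higher and 1 lower, beside 9.03% and 5.21% of genes tested, and those against rrp6∆ were 1 and 1, beside 4.54% and 3.87%. With 10 genes, counts of 0 to 4 do not set the histone genes apart from these background shares.

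Judged by libraries that do not overlap, med20∆/rrp6∆ had 5 of 10 genes lower and 1 higher than wild type, beside 21.9% and 19.5% of all genes tested. Other genes with a mean above 12000 in a mutant were not recovered. These shares and those of limma therefore leave out the most abundant genes. In rrp6∆ 2 of 10 were lower and 0 higher, beside 13.7% and 13.9%, and in med20∆ 1 was lower and 1 higher, beside 12.3% and 10.7%. Against med20∆, med20∆/rrp6∆ had 1 lower and 0 higher, beside 16.8% and 16.0%, and against rrp6∆ it had 2 lower and 1 higher, beside 14.1% and 13.6%. The interaction term, which asks whether losing both genes differs from the sum of the losses, was called for 0 of 10 genes by limma, with 0 at an unadjusted p under 0.05, beside 0.151% of all genes higher and 0.0838% lower. For hht1 it was -0.29 ± 0.34 SE and for hht2 0.49 ± 0.52 SE (log2, limma, adjusted p = 0.995 for both). The comparisons with wild type share its 3 libraries, so their values are not independent of each other.

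The median log2 fold change of the 10 genes in the authors' deposited tables was -0.11 in med20∆, -0.37 in rrp6∆ and -0.42 in med20∆/rrp6∆. For all genes of those tables the medians were -0.0027, -0.04 and -0.03, and for protein-coding genes with a mean of at least 1000, which the mean of every histone gene exceeds in these strains, they were -0.05, -0.27 and -0.35. In rrp6∆ all 10 values in the authors' deposited table were below 0, from -0.09 to -0.53. So were 3224 of 5118 protein-coding genes there, and 1858 of the 2266 with a mean of at least 1000, so most abundant genes had this sign. Scaling libraries by their summed counts over the 6547 recovered genes, in place of size factors, shifts every log2 difference against wild type. It adds 0.04 in med20∆, 0.27 in rrp6∆ and 0.31 in med20∆/rrp6∆. Those sums leave out most genes with a mean above 12000 and so are not library totals. On that scale 7 of the 10 genes were below 0 in rrp6∆, with hht3, hhf2 and hta2 above it at 0.12, 0.05 and 0.05 (limma, adjusted p = 0.835, 0.945 and 0.955). In med20∆/rrp6∆ that scale gave hht1 -1.22 (limma, adjusted p = 0.000651), hht2 1.35 (adjusted p = 0.0111) and hhf2 0.86 (adjusted p = 0.0335), while hhf3 and hta1 were no longer called. Re-centring on the median protein-coding gene also put hhf2 and hht3 above 0 in rrp6∆. Without the 4 libraries that stand apart, all 10 genes were below 0 in rrp6∆ by limma, from -0.42 for hht3 to -0.81 for hhf3, of which hhf3 passed (adjusted p = 0.0405).

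**Figure D3:**
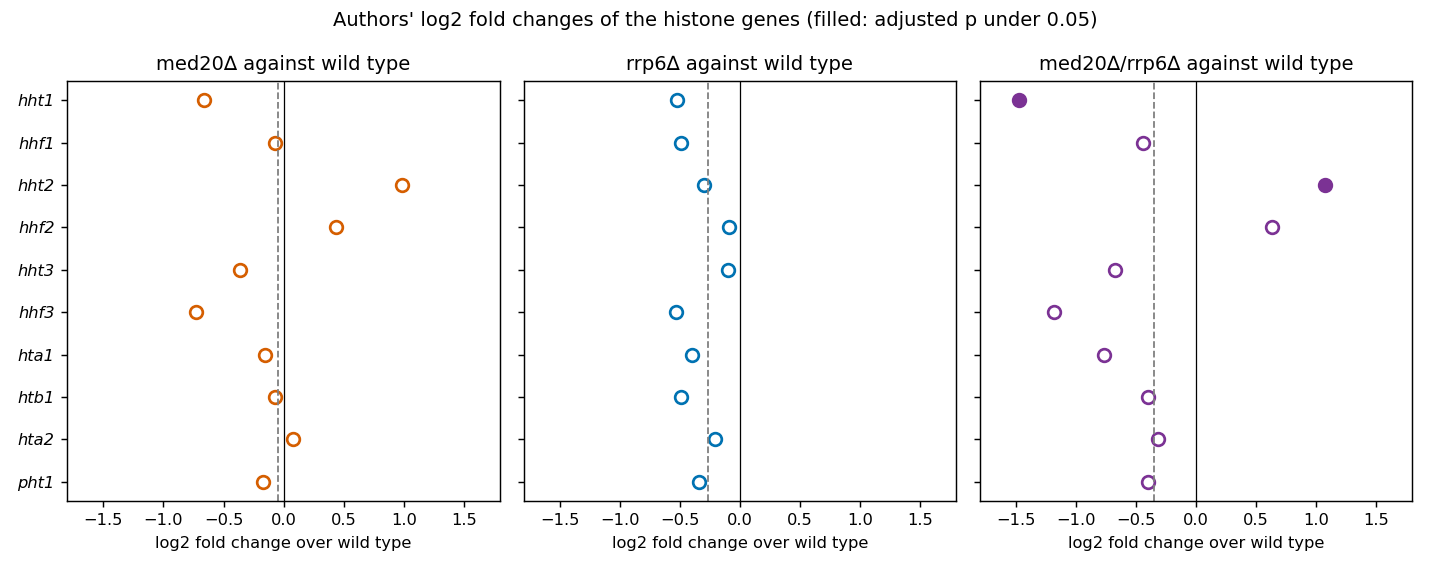
The authors' log2 fold changes of the 10 histone genes in each mutant over wild type, filled where the deposited adjusted p is under 0.05; the dashed line is the median of protein-coding genes with a mean of at least 1000. In med20∆/rrp6∆ hht1 at -1.48 and hht2 at 1.07 are filled, and in the other mutants none is.

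Ratios taken within a library need no size factor, so they compare the 3 H3-H4 gene pairs directly. By summed counts the hht2-hhf2 pair gained on both other pairs where med20 was deleted. That sum rests mostly on hht2, with 2.29 to 10.4 counts for each count of hhf2. No difference among strains passed for the summed ratio between the other pairs. In med20∆/rrp6∆ the H3 and H4 ratios between those other pairs shifted in opposite directions, as given below. The summed counts of hht2 and hhf2 over those of hht1 and hhf1 were 1.42, 1.79 and 1.89 in med20∆, 0.731, 0.881 and 1.00 in rrp6∆, 2.71, 2.56 and 2.91 in med20∆/rrp6∆ and 0.66, 0.787 and 0.718 in wild type. The med20∆/rrp6∆ libraries were the highest, the med20∆ libraries came next, and neither overlapped any other strain. This ratio differed among the 4 strains (exact permutation test over 369600 assignments of libraries to strains, p = 0.00013, adjusted over 3 ratios 0.00039). Its mean was 2.34-fold higher in med20∆, 1.201-fold in rrp6∆ and 3.78-fold in med20∆/rrp6∆ than in wild type. With 3 libraries against 3 the exact permutation test cannot go below 0.10, and it gave 0.10, 0.20 and 0.10 (two-sided), which over 9 such comparisons adjust to 0.225, 0.30 and 0.225.

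Over the hht3-hhf3 pair, the hht2-hhf2 pair stood at 2.24, 3.52 and 2.88 in med20∆, 1.14, 1.01 and 1.24 in rrp6∆, 4.67, 3.08 and 4.65 in med20∆/rrp6∆ and 1.11, 1.21 and 1.25 in wild type. Both strains without med20 lay above rrp6∆ and wild type, and they overlapped each other. The ratio differed among strains (exact permutation test, p = 0.00104, adjusted 0.00156), being 2.38-fold higher in med20∆ and 3.41-fold in med20∆/rrp6∆ than in wild type, with rrp6∆ at 0.949-fold. The hht3-hhf3 pair over the hht1-hhf1 pair stayed between 0.509 and 0.87 in all 12 libraries, and no difference among strains passed (exact permutation test, p = 0.224, adjusted 0.224). Its means over wild type were 0.985-fold in med20∆, 1.27-fold in rrp6∆ and 1.11-fold in med20∆/rrp6∆. Leaving out any 1 library kept the calls on the first 2 ratios, with adjusted p up to 0.00351, and without the 4 libraries that stand apart both had an adjusted p of 0.0286.

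Taken apart, the H3 and H4 genes did not shift alike relative to the hht1-hhf1 pair. The ratio of hht2 to hht1 was 1.81, 4.03 and 3.93 in med20∆, 1.21, 1.05 and 1.55 in rrp6∆, 7.32, 4.38 and 7.63 in med20∆/rrp6∆ and 0.835, 1.23 and 1.12 in wild type. All med20∆ and med20∆/rrp6∆ libraries were above all others, and the strains differed (exact permutation test, p = 0.000325, adjusted 0.000974). The ratio of hhf2 to hhf1 was 0.847, 0.277 and 0.471 in med20∆, 0.228, 0.643 and 0.383 in rrp6∆, 0.603, 1.04 and 0.393 in med20∆/rrp6∆ and 0.375, 0.308 and 0.27 in wild type. Here every strain but med20∆/rrp6∆ overlapped wild type, and no difference among strains passed (exact permutation test, p = 0.346, adjusted 0.346). Relative to the hht3-hhf3 pair the shifts were closer. From wild type, hht2 over hht3 differed by 1.25 in med20∆, -0.16 in rrp6∆ and 1.79 in med20∆/rrp6∆ (log2). For hhf2 over hhf3 the differences were 1.16, 0.29 and 1.73, and only rrp6∆ overlapped wild type. Among strains hhf2 over hhf3 did not pass (exact permutation test, adjusted p = 0.0897). The ratio of hht3 to hht1 was 1.73-fold higher in med20∆/rrp6∆ than in wild type, and that of hhf3 to hhf1 was 0.60-fold. Both ratios differed among the 4 strains (exact permutation test, adjusted p = 0.00883 and 0.0179). For med20∆/rrp6∆ against wild type alone, the exact permutation test of 3 libraries against 3 gave adjusted p = 0.15 and 0.18. The summed pair weighs each gene by its counts, and in med20∆/rrp6∆ hhf3 averaged 1412 beside 10056 for hht3.

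**Figure D4:**
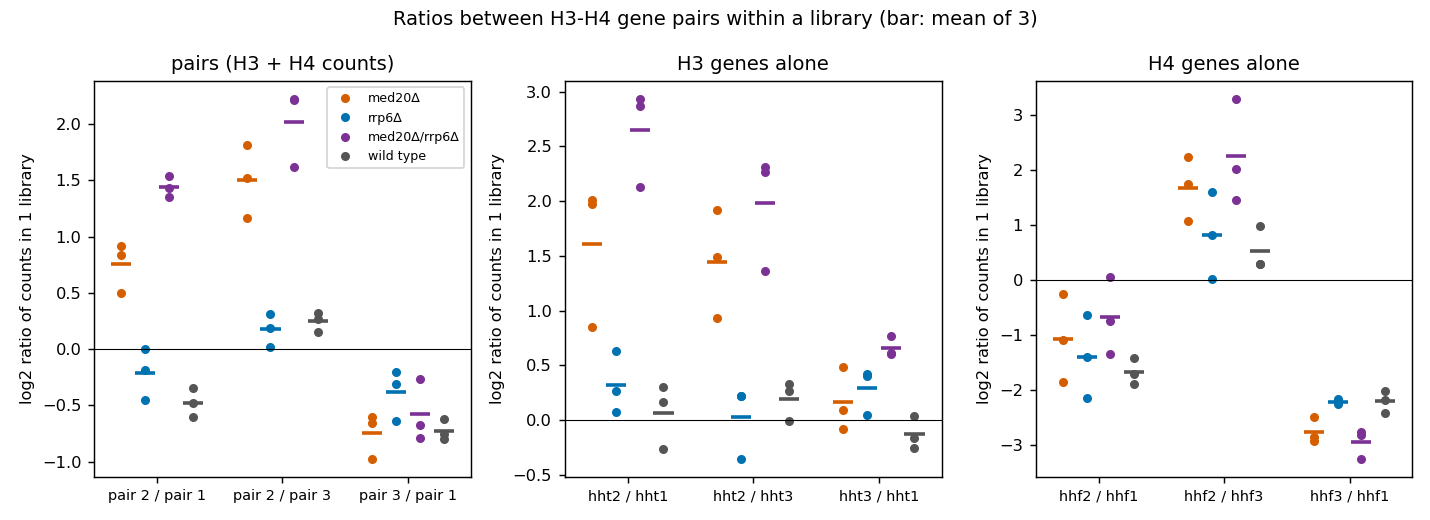
Log2 ratios of counts within each library between H3-H4 gene pairs, for summed pairs (pair 1 is hht1-hhf1, pair 2 hht2-hhf2, pair 3 hht3-hhf3), for H3 genes and for H4 genes, with bars for means of 3 libraries. In the panel of summed pairs, pair 2 over pair 1 averages 0.75 in med20∆, -0.21 in rrp6∆, 1.44 in med20∆/rrp6∆ and -0.47 in wild type.

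Within a pair, the ratio of the H3 gene to its H4 partner was not fixed either. The ratio of hht1 to hhf1 was 1.46, 0.676 and 0.696 in med20∆, 1.06, 1.40 and 1.13 in rrp6∆, 0.456, 0.832 and 0.534 in med20∆/rrp6∆ and 1.63, 1.08 and 1.10 in wild type. All med20∆/rrp6∆ libraries were below all of wild type and of rrp6∆, while med20∆ library 1 was inside the wild-type range. The ratio of hht2 to hhf2 ranged from 3.11 to 9.83 in med20∆, from 2.29 to 5.59 in rrp6∆, from 3.52 to 10.4 in med20∆/rrp6∆ and from 3.63 to 4.59 in wild type. For hht3 to hhf3 the ranges were 5.47 to 7.65, 4.91 to 8.88, 4.67 to 13.4 and 4.44 to 7.25 in the same order of strains, and all overlapped. The ratio of hta1 to htb1 ranged from 0.347 to 0.472 in med20∆, from 0.361 to 0.647 in rrp6∆, from 0.239 to 0.512 in med20∆/rrp6∆ and from 0.398 to 0.468 in wild type, so these overlapped too.

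As shares of all H3 counts, hht1 made up 19.6% ± 6.11 in med20∆, 28.7% ± 2.61 in rrp6∆, 11.4% ± 2.38 in med20∆/rrp6∆ and 33.7% ± 3.39 in wild type (SD, n = 3 each). The share of hht2 was 58.8% ± 9.40 in med20∆, 36.1% ± 4.61 in rrp6∆, 70.4% ± 7.43 in med20∆/rrp6∆ and 35.4% ± 3.66 in wild type. That of hht3 was 21.6% ± 3.86, 35.2% ± 3.90, 18.2% ± 5.05 and 30.8% ± 1.05 in these strains. Among H4 counts, hhf1 held the largest share in 11 of the 12 libraries, at 60.8% ± 10.9 in med20∆, 61.8% ± 7.51 in rrp6∆, 56.3% ± 9.25 in med20∆/rrp6∆ and 65.1% ± 1.72 in wild type. The exception was med20∆/rrp6∆ library 2, where hhf1 had 46.7% and hhf2 48.4%. The share of hhf3 was 8.96% ± 0.360 in med20∆, 13.4% ± 1.99 in rrp6∆, 7.57% ± 2.32 in med20∆/rrp6∆ and 14.3% ± 2.01 in wild type.

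**Figure D5:**
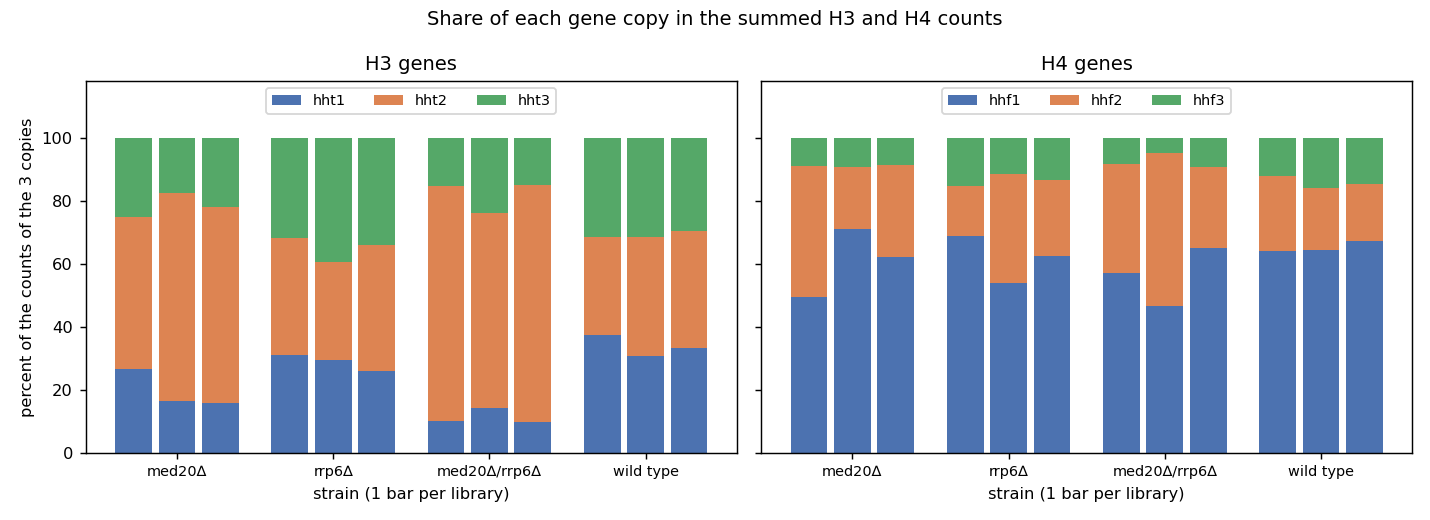
Percent of the summed H3 counts and of the summed H4 counts taken by each gene copy, 1 bar per library in 4 strains. The share of hht2 runs from 48.2% to 66.1% in med20∆, 31.0% to 39.98% in rrp6∆, 61.9% to 75.1% in med20∆/rrp6∆ and 31.2% to 37.8% in wild type.

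The sums over copies overlapped wild type in every mutant when all libraries were counted, and part of this overlap rested on the libraries that stand apart. Summed H3 levels were 61973 ± 23537 in med20∆, 41729 ± 3562 in rrp6∆, 55527 ± 10741 in med20∆/rrp6∆ and 53060.5 ± 7306 in wild type (normalised counts, SD, n = 3 each). Summed H4 levels were 22065 ± 7657, 16395 ± 1825, 18799 ± 1054 and 22348 ± 5488 in the same strains, and summed H2A levels, from hta1 and hta2, were 38159 ± 13039, 30396 ± 2576, 27514 ± 5599 and 37353 ± 6178. On the log2 scale H3 differed from wild type by 0.15 in med20∆, -0.34 in rrp6∆ and 0.06 in med20∆/rrp6∆, H4 by -0.05, -0.42 and -0.22, and H2A by -0.02, -0.29 and -0.45. No difference among the 4 strains passed for any sum (exact permutation tests, p = 0.398, 0.506 and 0.368, adjusted 0.506 for all), which with this spread does not show that the sums are equal. Without the 4 libraries that stand apart, which leaves 2 a strain, summed H3 was 82784 and 66705 in med20∆ and 39971 and 39389 in rrp6∆, against 56141 and 58322 in wild type, so that neither mutant overlapped wild type, while med20∆/rrp6∆ still did. Summed H4 was then at most 16908 in rrp6∆ and 18897 in med20∆/rrp6∆, against 24884 and 26110 in wild type, and summed H2A was at most 29438 in rrp6∆ and 27840 in med20∆/rrp6∆, against 39336 and 42296 in wild type. The log2 differences without those libraries were 0.38 in med20∆, -0.53 in rrp6∆ and -0.06 in med20∆/rrp6∆ for H3, the last with its sign turned. For H4 they were 0.04, -0.71 and -0.48, and for H2A 0.15, -0.50 and -0.73, with the med20∆ signs turned in both. Counts of H3 genes over those of H4 genes were 2.69 to 2.92 in med20∆, 2.36 to 2.74 in rrp6∆, 2.56 to 3.53 in med20∆/rrp6∆ and 2.23 to 2.79 in wild type.

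Set per kilobase of annotated gene, so that genes of different length can be ordered, hht2 led in med20∆ and in med20∆/rrp6∆, and hta2 in rrp6∆ and in wild type. In med20∆/rrp6∆ the level of hht2 was 55978 ± 13535 per kilobase, above hta2 at 25262 ± 4215 without overlap. In wild type hta2 stood at 31942 ± 7314 per kilobase, hht2 at 27092 ± 6208, hht1 at 21425 ± 1664, hht3 at 21325 ± 2604, hhf1 at 17641 ± 4619 and htb1 at 16710.5 ± 1333, and each of these overlapped its neighbour in the order. Below them came hta1 at 9122 ± 363, hhf2 at 5649 ± 719, hhf3 at 5244 ± 1846 and pht1 at 2573 ± 528 per kilobase in wild type, with gaps on both sides of hta1. The level of hht1 was the third in wild type and the seventh in med20∆/rrp6∆, at 7583 ± 1882 per kilobase there. Which stretch of a gene was counted was not stated, so these levels rest on the RefSeq gene lengths.

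Genes that act on histones were read from lists, which hold none of the 10 genes. Of 7 genes for histone gene transcription, including ams2 and the HIRA genes, the authors' deposited tables called 0 in any mutant (DESeq, 0 also at an unadjusted p under 0.05). The level of ams2 itself was given at -0.18, -0.41 and -0.76 in med20∆, rrp6∆ and med20∆/rrp6∆ in the authors' deposited tables (DESeq, adjusted p = 1, 0.897 and 0.466). Of 10 histone chaperone genes, 1 fell in med20∆/rrp6∆, asf1, whose product carries H3-H4 dimers, at -1.22 (DESeq, adjusted p = 0.00912) in the authors' deposited table. Of 14 genes for H2A.Z exchange by the SWR1 complex and its partners, 1 fell, the bromodomain gene bdf1, at -1.22 (DESeq, adjusted p = 0.0119) in the authors' deposited table. These single calls stand beside 6.71% of all genes called lower. Of 5 genes for the centromeric H3 variant and its loading, 0 were called in any mutant, with 1 at an unadjusted p under 0.05 in med20∆/rrp6∆ and 0 in the others. The medians of these 4 lists in med20∆/rrp6∆ were -0.21, -0.56, -0.19 and -0.24 in the authors' deposited table, beside -0.18 for all protein-coding genes.

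Genes of the factor MBF are transcribed at the G1-S transition, and 4 of the 18 listed fell in med20∆/rrp6∆. The authors' deposited table called 4 lower and 0 higher there, beside 6.71% of all genes lower, and 7 had an unadjusted p under 0.05. All 18 values were below 0, down from -0.01 for suc22, with a median of -0.68 in the authors' deposited table. Of 2395 protein-coding genes with a mean of at least 1000, 300 were called lower and 1747 were below 0, with a median of -0.35. The 4 were cdc22, the large subunit of ribonucleotide reductase, at -1.797 (DESeq, adjusted p = 3.7e-05), cdt2 at -1.42 (adjusted p = 0.00276), the kinase gene mik1 at -1.41 (adjusted p = 0.00294) and dut1, a dUTPase gene, at -1.10 (adjusted p = 0.0272), in the authors' deposited table. None was called in med20∆ or rrp6∆, where 2 and 0 had an unadjusted p under 0.05 and the medians were -0.36 and -0.35. The summed level of the list ran from 28025 to 31037 in med20∆, 25795 to 31115 in rrp6∆, 14809 to 20451 in med20∆/rrp6∆ and 33970.0 to 42167 in wild type, so that no mutant overlapped wild type. Much of that sum is cdc22, which averaged 9949, 10404, 4508 and 15926 in these strains, and the sum without it was not taken. Of all single genes tested, 12.3% in med20∆, 13.7% in rrp6∆ and 21.9% in med20∆/rrp6∆ lay below wild type without overlap. The part of S phase in the levels of hht1, hht2 or the other histone genes was not tested.

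The genes next to the histone genes were read from the same tables, since their transcripts can share reads with them. The libraries were strand-marked per the labels, but the strand setting of the counting was not stated, so reads of a gene and its antisense partner may not be told apart. The non-coding RNA SPNCRNA.1611 covers all of hhf3 on the opposite strand. SPNCRNA.1194 covers all of hta1 on the opposite strand and reaches 6 bases into htb1. Their means in med20∆/rrp6∆ were 19.6 and 62.2 against 9.86 and 54.95 in wild type in the authors' deposited table, far under those of hhf3 and hta1, and neither was called (DESeq, adjusted p = 0.416 and 0.91). SPNCRNA.1432 shares 79 bases with hhf2 on the same strand, and the authors' deposited tables give it -0.75, 0.77 and 1.09 in med20∆, rrp6∆ and med20∆/rrp6∆ (DESeq, adjusted p = 0.549, 0.293 and 0.0707). SPNCRNA.1610, 105 bases from hht3, was at -1.19, -0.58 and -1.06 in the authors' deposited tables (DESeq, adjusted p = 0.274, 0.668 and 0.216). The protein-coding genes rav1 and sec5 overlap the ends of hht3 and htb1 by 46 and 258 bases on the opposite strand, and neither was called in any mutant in the authors' deposited tables.

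The genes beside the hht1-hhf1 pair, aro1 and alg9, stood at -0.36 and -0.11 in med20∆/rrp6∆ in the authors' deposited table (DESeq, adjusted p = 0.51 and 0.868). Beside the hht2-hhf2 pair, the authors' deposited table has vps68 and sfi1 at -0.05 and -0.40 (DESeq, adjusted p = 0.948 and 0.544), so none of these neighbours was called. The right-hand neighbour of the hht3-hhf3 pair, SPBC1105.13C, and its nearest protein-coding gene on the left, ubc15, were not called in any mutant. The same held for SPCC622.07 and lmb1 beside hta1-htb1. Next to hta2, mce1, annotated as a citrate transporter gene, fell in med20∆/rrp6∆ at -1.23 (DESeq, adjusted p = 0.00549) in the authors' deposited table, and rsd1 on the other side stood at 0.12 (adjusted p = 0.914). Next to pht1, cdc2 and shy1 were not called in any mutant. The tRNA gene SPBTRNATHR.06 had a mean of 76.1 in med20∆/rrp6∆ against 1.66 in wild type (DESeq, adjusted p = 0.00401), and the rRNA gene SPRRNA.33 was at -1.96 in rrp6∆ (adjusted p = 0.0396), in the authors' deposited tables.

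The pattern of the core histone genes over the 12 libraries was summarised as the mean of the centred log2 levels of the 9 genes other than pht1. Pearson's r with this mean was 0.92 for hta2, 0.88 for hhf1, 0.78 for htb1, 0.74 for hht3 and 0.73 for hta1. It was 0.69 for hhf3, 0.65 for hht1, 0.33 for hht2 and 0.17 for hhf2. These 9 genes are part of the mean, which raises their r. The r of pht1, which was not part of it, was 0.34. Among 5215 other genes with a mean of at least 50, the 6 most alike were pga3 (r = 0.94), vps66 (r = 0.93), gdt2 (r = 0.93), SPAC9.08C (r = 0.91), ost3 (r = 0.91) and rpl2702 (r = 0.91). They are annotated as a regulator of GPI-phospholipase A2 activity, an acyltransferase, a homologue of human TMEM165, a steroid reductase, an oligosaccharyltransferase subunit and a ribosomal protein. All points share libraries and size factors, so these values are descriptions with no p-value.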

How the data were processed

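The deposited files are 3 tables, 1 for each mutant against wild type. In them, per the file headers, stand, for each gene, the authors' mean normalised count (a signal: counts divided by the size factors of the libraries and averaged over 3 samples), a fold change as the ratio of means, its log2 value, and a p-value with its adjusted p-value. Alignment used Bowtie 0.12.7 and the comparisons DESeq, per the submitters' processing notes; build, annotation, counting program, DESeq version and strand setting: not given in the sources used here.

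Each mean was split into the 3 whole counts that return its printed digits (Python 3.11.15, numba 0.67.0), for 6547 genes in all 12 libraries. In the mutants, the whole counts behind means above 12000 were searched only for the histone genes. The exact test of DESeq that the authors ran, recomputed from these counts as a check, returned the deposited p-value within a relative tolerance of 0.0001 for 400 of 400 genes checked in each table and for all 10 histone genes. For hht2 and hta2 in med20∆/rrp6∆ more than 1 split met the digits, and the deposited p-value chose among them. The authors' test is the main one for mutants against wild type, called at an adjusted p under 0.05. All other comparisons were fitted in R 4.3.3 by limma 3.58.1 (trend option) to log2 of the size-factor-scaled count plus 1, in 1 model of 4 strains and 5969 genes whose mean reached 10, Benjamini-Hochberg adjusted within a comparison; these log2 differences slightly understate changes of low genes. Tested on simulated data for med20∆ against wild type with 5966 genes, limma called 50 of 50 genes raised 4-fold, 50 of 50 lowered 4-fold, 23 and 27 of 50 changed 2-fold up and down, and 12 of 5766 unchanged genes. Pair ratios used exact permutation tests. Alternatives were another pseudocount (8), no filter, library sums over the recovered genes, each library left out, geometric means, and H3 or H4 genes alone. Leaving out the 4 libraries that stand apart, non-overlap and sums over copies were added after seeing the data. The 10 genes and the gene lists were chosen with earlier results of these data known. Named genes are all 10, list genes called in a deposited table (up to 4 a list), the nearest genes on each side, overlapping ones and non-coding genes in between, the 6 genes most alike over the libraries, med20 and rrp6, plus ura4 and ams2, chosen after their values were seen. Of the listed symbols, vps72 had no match, mug180 matched only another gene and cia1 is asf1, so these were left out or counted once. RefSeq names matched 6769 of 6888 identifiers. Counting error alone is small at these depths; p-values carry the spread between libraries.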

Additional observations from a re-analysis of the deposited data

How the results depend on the processing

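No paired analysis was possible because the recovered libraries carry no replicate letter. The count of histone genes called in med20∆/rrp6∆ against wild type was 2 in the authors' test, 4 by limma, 3 with library sums and 6 without the 4 libraries that stand apart, and 1 to 5 with a library left out. In rrp6∆ it was 0, and 1 without those 4 libraries (hhf3), and 0 with any 1 library left out. In med20∆ it was 0, and 0 to 1 with a library left out. Against med20∆, med20∆/rrp6∆ had 1 call, 0 with library sums, 3 without the 4 libraries and 0 to 2 with a library left out; against rrp6∆ it had 2, 3 without the 4 libraries, and 0 to 2 with a library left out. The interaction had 0 under every setting run. No share of all genes called was set beside the counts under the changed settings, so these counts do not set the histone genes apart. For the pair ratios, the gap between the highest and lowest strain mean on the log2 scale was 1.92 for hht2-hhf2 over hht1-hhf1, which became 0.99 with H4 genes alone (exact permutation test, adjusted p = 0.346). Over hht3-hhf3 it was 1.85, which became 1.73 with H4 genes alone (adjusted p = 0.0897, exact permutation test). For hht3-hhf3 over hht1-hhf1 it was 0.36, which became 0.79 with H3 genes alone and 0.74 with H4 genes alone (adjusted p = 0.00883 and 0.0179, exact permutation tests), in opposite directions. Geometric means kept the calls on the first 2 ratios, and the third stayed short of the threshold (adjusted p = 0.0703, exact permutation test). A pseudocount of 8 or no filter moved no count, and no called value changed sign in any setting. The causes were not tested. Limits: 3 libraries a strain, near-identical copies whose read assignment is not given, and 1 library per strain that stands apart.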
